A study of Mus musculus with 4 samples.

Results

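The Wnt pathway genes of the developing mouse forelimb were described by the accessible chromatin around them. A list of 53 genes, of 22380 protein-coding genes, held 22 secreted ligands (18 Wnt proteins and 4 R-spondins), 14 receptors, 11 proteins that act inside the cell and 6 secreted inhibitors. A region was counted for a gene when the protein-coding transcription start nearest to its centre was that gene's, or when its centre was at most 2.5 kb from any start of that gene. This rule found 255 of the 42613 regions listed at E9.5 and 266 of the 46765 regions listed at E10.5. The assignment used positions alone and no scores.

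The regions came from ATAC-seq, in which a transposase inserts sequencing adapters into open DNA, performed on wild-type NMRI mouse embryos. The E9.5 group was forelimb buds with the attached trunk (the protocol gave a slightly later age), and the E10.5 group was forelimb buds. For the E10.5 samples 1 label also named hindlimb buds, whereas the source and protocol gave forelimbs. There were 2 replicates per stage, each a pair of forelimbs from 1 embryo. The submitters combined the replicates into 1 list per stage, so the values below have no replicate error and no test was made between the stages. Stage and trunk tissue cannot be told apart in this design, and a region missing because fewer cells carried it cannot be told apart from 1 that was less open in each cell.

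Wnt proteins are secreted lipid-modified ligands that bind Frizzled receptors together with the co-receptors Lrp5 and Lrp6. Binding halts a destruction complex built on the scaffold proteins Axin and Apc, β-catenin (Ctnnb1) accumulates, and in the nucleus it acts on target genes through the TCF/LEF factors. R-spondins, which bind the Lgr receptors, raise the sensitivity of cells to Wnt, while Dkk, Sfrp and Wif1 proteins block it outside the cell. In the limb bud, Wnt signals from the ectoderm keep the mesenchyme proliferating and undifferentiated, and Wnt5a directs the elongation of the bud along its long axis.

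The score of a region was 10 times the negative log10 of its best peak-calling p-value in the replicates. It grows with sequencing depth, so scores are given with their percentile within their own list, and the lists hold no read counts from which the depth could be known. Scores ran from 60.52 to 3233.06 at E9.5 and from 60.44 to 3230.05 at E10.5, with 843 and 450 regions at or above 3100, where the scale saturates. A region was called stage-specific when it shared no base with a region of the other list, and promoter-proximal when the distance from its centre to a protein-coding start was at most 2.5 kb. All other regions were called distal. Brackets after a share give the 95% Wilson interval, which reflects counting error alone and takes regions as independent, although several can belong to 1 gene. Of the marker genes for tissues that the dissections could hold, promoter regions were listed at both stages for 8 of 8 forelimb mesenchyme genes, 2 of 3 hindlimb genes (Pitx1 at E9.5 only), 4 of 6 ectoderm and ridge genes, 6 of 6 somite genes, 4 of 4 neural tube genes, 1 of 5 blood and vessel genes and 2 of 4 gut and liver genes. Per 100 kb of sequence nearest to each set, distal regions numbered 1.90 at E9.5 and 3.54 at E10.5 around the forelimb mesenchyme genes, 4.22 and 2.56 around the somite genes, and 2.22 and 1.37 around the neural tube genes. They numbered 2.85 and 3.27 around the hindlimb genes, 2.88 and 3.20 around the ectoderm and ridge genes, 1.86 and 2.04 around the blood and vessel genes, and 2.20 and 3.55 around the gut and liver genes.

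The 300 bases at the middle of 8 regions are printed here from the mm9 reference genome, plus strand, 5′ to 3′. Capitals mark the TCF/LEF core CTTTGAT or CTTTGAA, the homeodomain core TAATTA, the TALE-homeodomain core TGACAG, the letters GGCGCC, and the letters GGTTCAA or GGTTCGA, each on either strand. The highest-scoring distal regions specific to E9.5 were those of Wnt1 (in the intergenic sequence 6.54 kb from its nearest start) and Lgr4 (in its own intron, 25.1 kb from the nearest start).
Wnt1, E9.5 list, chr15:98628512-98628811: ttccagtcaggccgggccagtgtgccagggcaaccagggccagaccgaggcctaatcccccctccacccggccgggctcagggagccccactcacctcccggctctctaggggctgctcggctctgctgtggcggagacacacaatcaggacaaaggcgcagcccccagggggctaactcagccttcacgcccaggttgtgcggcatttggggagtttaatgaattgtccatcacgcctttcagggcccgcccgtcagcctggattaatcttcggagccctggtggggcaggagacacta
Lgr4, E9.5 list, chr2:109782764-109783063: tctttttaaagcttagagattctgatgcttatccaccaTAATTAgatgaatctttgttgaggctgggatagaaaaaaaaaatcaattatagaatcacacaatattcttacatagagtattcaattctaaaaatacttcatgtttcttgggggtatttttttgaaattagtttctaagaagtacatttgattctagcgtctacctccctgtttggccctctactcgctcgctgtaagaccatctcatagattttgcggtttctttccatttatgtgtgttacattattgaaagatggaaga
Their base composition lay far apart, with 64.3% G and C around the Wnt1 region and 33.0% in the Lgr4 region. Only the Lgr4 stretch held a match, which was TAATTA. The highest-scoring distal regions specific to E10.5, taking 1 per gene, were those of Rspo3 (intergenic, 201 kb from its start) and Tcf7l2 (intergenic, 79.1 kb from the nearest start).
Rspo3, E10.5 list, chr10:29456467-29456766: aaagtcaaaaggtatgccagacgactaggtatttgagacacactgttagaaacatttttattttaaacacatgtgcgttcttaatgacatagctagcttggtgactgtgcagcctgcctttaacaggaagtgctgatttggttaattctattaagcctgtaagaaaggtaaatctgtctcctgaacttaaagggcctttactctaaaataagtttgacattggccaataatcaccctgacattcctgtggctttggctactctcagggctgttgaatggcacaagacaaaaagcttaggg
Tcf7l2, E10.5 list, chr19:55737029-55737328: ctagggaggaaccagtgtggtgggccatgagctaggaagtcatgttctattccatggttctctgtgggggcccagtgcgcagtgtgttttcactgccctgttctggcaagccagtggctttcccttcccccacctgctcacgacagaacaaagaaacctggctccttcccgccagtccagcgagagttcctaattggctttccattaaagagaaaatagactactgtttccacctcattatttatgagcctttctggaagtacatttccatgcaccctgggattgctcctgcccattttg
Neither stretch held any of the letters searched. Ranked by E9.5 score, the highest distal regions present at both stages belonged to Wnt11 (intergenic, 19.3 kb from the nearest start) and Wnt7b (intergenic, 53 kb from it).
Wnt11, E9.5 list, chr7:105964131-105964430: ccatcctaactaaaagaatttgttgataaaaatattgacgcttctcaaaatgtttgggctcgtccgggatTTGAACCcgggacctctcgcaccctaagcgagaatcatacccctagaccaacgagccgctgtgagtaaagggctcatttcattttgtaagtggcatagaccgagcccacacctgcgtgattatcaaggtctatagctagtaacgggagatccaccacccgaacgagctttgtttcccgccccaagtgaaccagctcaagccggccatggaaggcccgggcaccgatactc
Wnt7b, E9.5 list, chr15:85465062-85465361: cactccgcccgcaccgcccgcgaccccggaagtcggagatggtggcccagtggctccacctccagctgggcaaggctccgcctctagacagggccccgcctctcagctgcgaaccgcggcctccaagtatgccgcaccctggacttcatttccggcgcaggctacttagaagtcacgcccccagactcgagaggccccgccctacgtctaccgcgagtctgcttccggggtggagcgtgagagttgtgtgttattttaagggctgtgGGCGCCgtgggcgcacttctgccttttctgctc
The Wnt11 stretch held GGTTCAA on the minus strand, letters found within the internal promoter of tRNA genes, which 2.56% of all distal E9.5 regions held in their central 300 bases. A pair of stretches was added after their values were seen. The Axin2 region, present at both stages 18.2 kb from the nearest start, had the most TCF/LEF matches of the distal Wnt regions in the E10.5 list, and the Wnt4 region was the highest-scoring promoter region specific to E9.5.
Axin2, E10.5 list, chr11:108822966-108823265: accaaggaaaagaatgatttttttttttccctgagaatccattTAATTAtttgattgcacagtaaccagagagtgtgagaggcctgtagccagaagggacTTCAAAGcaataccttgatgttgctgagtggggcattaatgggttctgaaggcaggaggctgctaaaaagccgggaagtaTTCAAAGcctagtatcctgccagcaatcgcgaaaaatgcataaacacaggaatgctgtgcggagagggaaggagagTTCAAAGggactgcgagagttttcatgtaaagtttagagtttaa
Wnt4, E9.5 list, chr4:136833564-136833863: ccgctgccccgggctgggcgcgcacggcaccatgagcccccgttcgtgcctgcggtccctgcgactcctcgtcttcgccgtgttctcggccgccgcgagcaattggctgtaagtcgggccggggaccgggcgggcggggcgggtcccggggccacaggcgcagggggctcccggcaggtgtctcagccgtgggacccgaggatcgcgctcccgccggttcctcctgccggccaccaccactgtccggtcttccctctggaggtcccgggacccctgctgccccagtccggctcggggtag
In the Axin2 stretch CTTTGAA occurred 3 times, each time on the minus strand, beside 1 TAATTA. The Wnt4 stretch was 75.3% G and C and lay at the start of the gene, its centre falling in an annotated intron.

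Promoter regions were listed for most Wnt genes at both stages, and every gene that lacked them was a ligand. A promoter region was present at both stages for 45 of the 53 genes (84.9%), against 61.3% of all protein-coding genes. It was present at E9.5 only for 4 genes (7.55%, against 3.75% of all genes), at E10.5 only for 0 genes (against 1.12%) and at neither stage for 4 genes (7.55%, against 33.8%). All 14 receptor genes, all 11 genes acting inside the cell and all 6 inhibitor genes had a promoter region at both stages, whereas 14 of the 22 ligand genes did (63.6%). In a wider list of 58 further pathway genes the share was 53 of 58 (91.4%), the exceptions being Csnk1e, Dkkl1, Dkk4, Kremen2 and Lgr6.

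The 4 ligand genes with a promoter region at E9.5 only differed widely in its score. Wnt4, a ligand required for kidney and female reproductive tract development, had a promoter region of 2531 bp with a score of 954.39 (percentile 78.9), and the nearest region of the E10.5 list lay 77445 bp away. The promoter regions of Wnt1, a dorsal neural tube signal, at 159.10 (percentile 31.1), of Wnt10b at 149.39 (28.2) and of Rspo1 at 237.42 (47.0) scored below the median of the E9.5 list. No promoter region was listed at either stage for Wnt3a, which maintains the presomitic mesoderm of the tail, Wnt8a, Wnt8b or Wnt10a.

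Of these genes, Wnt1, Wnt3a, Wnt4 and Wnt10b had no region of any kind in the E10.5 list. Together they had 10 regions at E9.5, 7 of them distal. None of the 10 had a partner at E10.5, against 29.9% of all E9.5 regions and 40.3% of distal ones. This largely follows from grouping genes that had no region at E10.5. Most of the distal ones were weak, with a median score of 106.63, but Wnt1 and Wnt3a each had a strong one. The Wnt1 region at chr15:98627956-98629367 scored 1073.79 (percentile 81.3) and was the highest-scoring E9.5-specific region of all 53 genes. A second Wnt1 region, 7.92 kb from the nearest start, scored 207.45. The Wnt3a region at chr11:59076989-59078651, inside an intron of the gene 26.4 kb from its start, scored 752.53 (percentile 74.3), while the other Wnt3a region scored 80.03. The E9.5 tissue included trunk. Of the marker densities given above, those of the somite and neural tube genes were higher at E9.5, and those of the gut and liver and of the blood and vessel genes were higher at E10.5. Their part in these regions was not tested.

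Wnt10a, which acts in skin, hair and tooth development, combined no promoter region with many distal ones. It had 7 distal regions at E9.5, 6 of them overlapping the 7 distal regions at E10.5. The strongest lay 25.5 kb downstream of its start, with a score of 922.9 at E9.5 (percentile 78.4) and 632.73 at E10.5 (76.8). A region 15.9 kb downstream scored 898.46 at E9.5, and at E10.5 a region at the same place was split into parts scoring 162.44 and 448.75. Wnt8a and Wnt8b had 2 and 1 distal regions at each stage, all shared, with scores between 93.73 and 170.18.

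Among the 45 genes with a promoter region at both stages, the receptors scored highest. For the 14 receptors, the best promoter scores had a median percentile of 93.1 at the earlier stage and 91.4 at the later, beside 88.8 and 82.1 for the 11 genes acting inside the cell, 74.7 and 72.4 for the 6 inhibitors, and 73.7 and 67.1 for the 14 ligands, with 84.4 and 83.1 for all protein-coding genes. Lgr4 and some of the Frizzled genes led the receptors, while others ranked low. Fzd6 (percentiles 69.3 and 65.0), Fzd9 (78.3 and 53.8) and Lrp5 (75.1 and 33.0) lay below the medians of all protein-coding genes at both stages. Fzd3 did so at E10.5 (76.5). Fzd1 scored 3122.33 at E9.5 and 3046.13 at E10.5, and Fzd4, Fzd5, Fzd7 and Fzd8 each stood at 3100 at E9.5, with 3002.54, 2008.33, 2081.42 and 2754.28 at E10.5. Lgr4, a receptor for R-spondins, stood at 3100 at both stages. Axin2, a scaffold of the destruction complex that is itself a Wnt target, was at 3100 at E9.5 and at 2318.64 at E10.5.

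**Figure D1:**
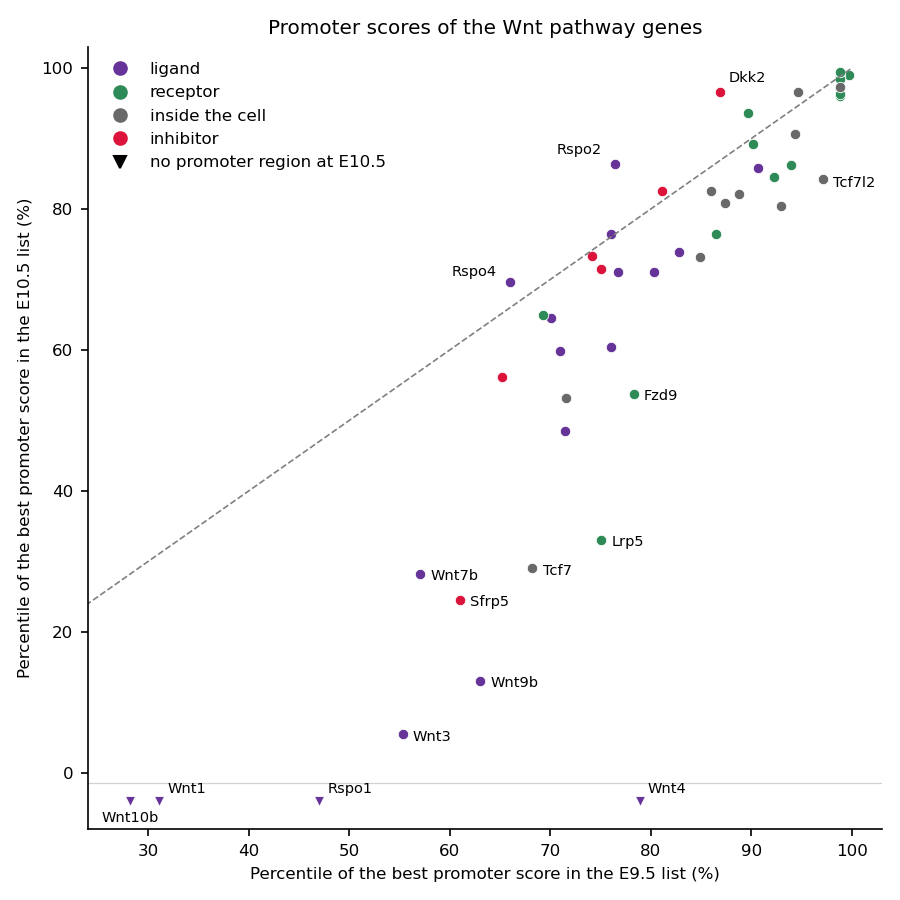
Percentile of the best promoter score of each gene within the E9.5 list (horizontal axis) and within the E10.5 list (vertical axis), coloured by class, for the 49 genes with a promoter region at either stage. Points on the dashed line had equal percentiles, triangles below the grey line mark the 4 ligand genes with no promoter region at E10.5, and most points lie below the dashed line.

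Most Wnt promoters ranked lower in the E10.5 list than in the E9.5 list. Leaving out Lgr4, which was at the limit in both lists, the percentile was higher at E10.5 for 8 of 44 genes (18.2%), against 40.2% of all genes counted the same way. These were Dkk2, Rspo2, Rspo4, Lgr5, Wnt5b, Fzd4, Tcf7l1 and Wif1. The score itself was higher at E10.5 for Dkk2 and Rspo2 alone. Dkk2, an inhibitor that binds Lrp co-receptors, went from 1424.51 (percentile 86.9) to 2111.64 (96.6), and 2 separate promoter regions at E9.5 met 1 region of 4092 bp at E10.5. Rspo2, a ligand needed for limb outgrowth, went from 837.08 (76.4) to 1019.99 (86.4). The widest falls in percentile were at Wnt3, from 311.83 (55.3) to 92.22 (5.44), Wnt9b, from 428.98 (63.0) to 109.79 (13.0), Lrp5, from 784.86 (75.1) to 160.28 (33.0), and Tcf7, from 548.24 (68.2) to 148.08 (29.0). Wnt3 acts in the limb ectoderm, Lrp5 is a co-receptor and Tcf7 is a TCF/LEF factor.

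Stage-specific promoter regions were few. At E9.5 they numbered 10 of 65 (15.4% [8.58, 26.1], against 13.1% of all promoter regions), and at E10.5 they numbered 2 of 58 (3.45% [0.951, 11.7], against 5.31%). Both shares had the background inside their interval. By class, 8 of 28 ligand promoter regions were specific at E9.5 (28.6% [15.3, 47.1]), an interval above the background. The receptors had 0 of 15, the genes inside the cell 2 of 15 and the inhibitors 0 of 7. At E10.5 the ligands had 0 of 21. The 2 regions at E10.5 belonged to Lrp6, which had 1 shared promoter region beside it, and to Axin2, which had 2. At E9.5, Wnt6, Wnt7b, Wnt3, Tcf7 and Tcf7l2 likewise had a specific region beside a shared one.

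Distal regions made up more of the Wnt regions than of the whole lists. Promoter-proximal regions were 25.5% [20.5, 31.2] of the Wnt regions at E9.5, against 38.3% of the list, and 21.8% [17.3, 27.1] at E10.5, against 32.9%. The 53 genes had 190 distal regions at E9.5 and 208 at E10.5. Within the sequence nearest to their starts this came to 2.40 and 2.63 distal regions per 100 kb, compared with 0.989 and 1.18 for all protein-coding genes. The numbers were uneven: Tcf7l2 had 17 and 18, Fzd1 9 and 17, Dkk2 7 and 16 and Rspo3 3 and 12, whereas Fzd6, Wnt9b, Axin1, Dvl1, Dvl2 and Dvl3 had 0 at both stages. The 3 Dvl genes, which relay the signal from Frizzled, and Axin1 were each nearest to 10.1 to 60.6 kb of sequence, and Tcf7l2 to 564 kb. All but 2 distal Wnt regions at each stage lay more than 2.5 kb from any annotated start, noncoding genes included, the exceptions being regions of Fzd2 and Rspo4. The annotation used held no nuclear tRNA genes, so starts of these were not covered.

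**Figure D2:**
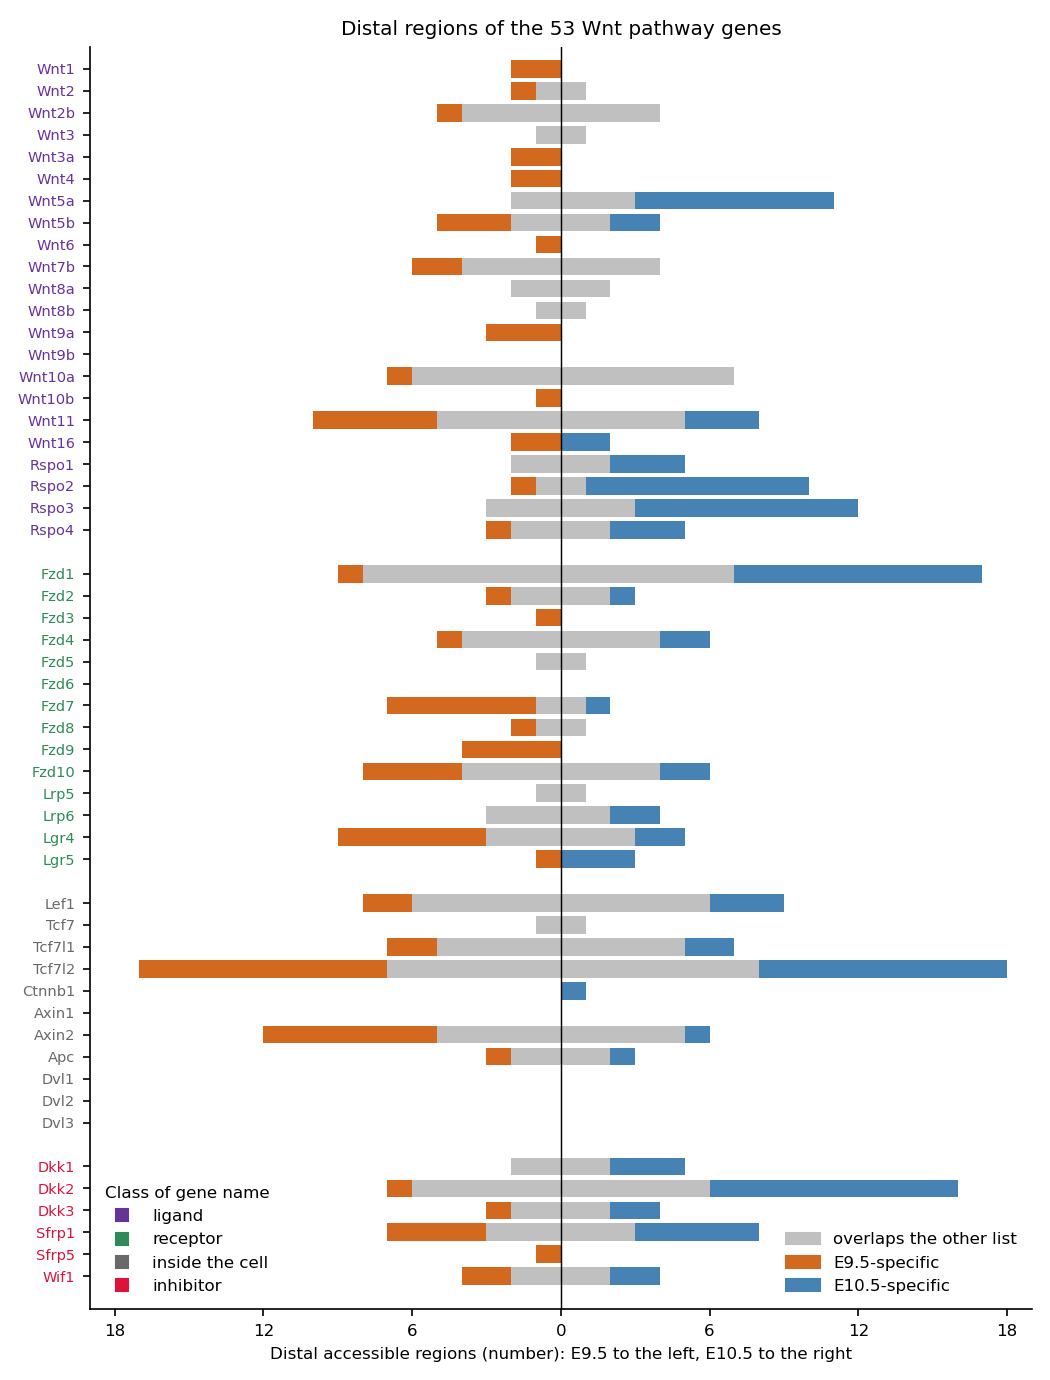
Number of distal regions of each of the 53 genes at E9.5 (bars to the left) and E10.5 (bars to the right), with regions that overlapped the other list in grey and stage-specific ones in colour. Gene names are coloured by class, and the longest blue parts belong to Fzd1, Dkk2, Tcf7l2, Rspo3, Rspo2 and Wnt5a.

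With promoter and distal regions counted as 1 set, the stage-specific share of the Wnt regions had an interval above the background at E9.5 and one that held it at E10.5. At E9.5, 95 of 255 Wnt regions were specific (37.3% [31.6, 43.3], against 29.9%), and at E10.5, 104 of 266 were (39.1% [33.4, 45.1], against 35.0%). Among distal regions alone the share at E9.5 was 85 of 190 (44.7% [37.8, 51.8], against 40.3%) and at E10.5 it was 102 of 208 (49.0% [42.3, 55.8], against 49.6%). The distal shares therefore did not stand apart from all distal regions. In the wider list of pathway genes the E9.5 share of distal regions was 81 of 187 (43.3%) and the E10.5 share 88 of 197 (44.7%).

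By class, the distal shares ran in different directions. Of the ligands' distal regions 28 of 64 (43.8% [32.3, 55.9]) were specific at E9.5, compared with 39 of 77 (50.6% [39.7, 61.5]) at E10.5. For the receptors the shares were 26 of 54 (48.1%) and 23 of 49 (46.9%), and for the genes inside the cell 22 of 48 (45.8%) and 18 of 45 (40.0%). The inhibitors had 9 of 24 (37.5% [21.2, 57.3]) and 22 of 37 (59.5% [43.5, 73.7]). Each of these intervals held the background of all distal regions at its stage.

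The ligand class joined families that differed. Of the distal regions of the 18 Wnt genes, 26 of 54 (48.1% [35.4, 61.1]) were specific at E9.5, compared with 15 of 45 (33.3% [21.4, 47.9]) at E10.5, the last interval lying below the 49.6% of all distal regions. Of those of the 4 R-spondin genes, 2 of 10 (20.0% [5.67, 51.0]) were specific at E9.5, compared with 24 of 32 (75.0% [57.9, 86.7]) at E10.5, an interval above that background. All 4 R-spondin genes contributed at E10.5, with 3 of 5 regions for Rspo1, 9 of 10 for Rspo2, 9 of 12 for Rspo3 and 3 of 5 for Rspo4. Of the 15 E10.5-specific distal regions of the Wnt genes, 8 belonged to Wnt5a. Most of the 18 Wnt genes were each nearest to less than 100 kb of sequence. For all genes of that size the E10.5-specific distal share was 29.4%, a value inside the Wnt family interval. With a reciprocal overlap of 50% the Wnt family share was 48.9% [35.0, 63.0] (52.5% in the whole list), an interval that held the background, as did those from scores of at least 120, from the higher-scoring 50% of each list and from starts of all gene types. The R-spondin interval lay above the background under these settings, with shares from 78.1% to 100%.

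**Figure D3:**
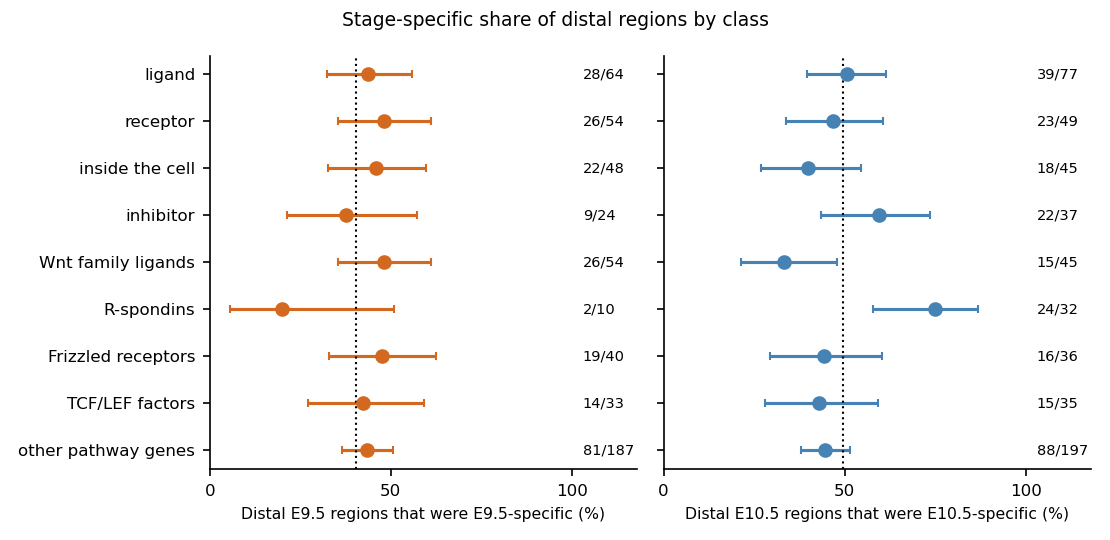
Share of distal regions that were stage-specific (points, in %, with 95% Wilson intervals) at E9.5 on the left and E10.5 on the right, by class and family, with counts beside them. Dotted lines mark the share among all distal regions, 40.3% and 49.6%, and at E10.5 the R-spondins lie to the right of the line and the Wnt family to its left.

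Gene by gene, a surplus of E9.5-specific regions was the more frequent one, but the largest surpluses were of E10.5-specific regions. E9.5-specific regions outnumbered E10.5-specific ones at 23 of the 53 genes (43.4%), the reverse held at 15 (28.3%) and the counts were equal at 15. Of all genes with a region, 24.8% and 25.7% had a surplus in each direction. Among the ligands 13 of 22 had more E9.5-specific regions and 5 more E10.5-specific ones, while among the inhibitors the counts were 1 and 4 of 6. The surplus at E9.5 reached 5 regions at Fzd7 and Axin2 and 4 at Fzd9, Lgr4 and Wnt7b. At E10.5 it reached 9 regions at Rspo3, Fzd1 and Dkk2 and 8 at Wnt5a and Rspo2.

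These last 5 genes, singled out after their counts were seen, held 46 of the 102 E10.5-specific distal Wnt regions and 3 of the 85 E9.5-specific ones. Wnt5a, a ligand that mostly signals without β-catenin, had 2 distal regions at E9.5 and 11 at E10.5. Its 8 E10.5-specific regions lay 3.28 to 312 kb upstream of the nearest start, 7 of them in introns of the neighbouring gene Erc2, and were weak, with scores from 86.84 to 248.44. The shared region 30.8 kb downstream scored 123.73 at E9.5 (percentile 18.3) and 460.21 at E10.5 (69.3), while the shared region 53.5 kb upstream scored 532.27 at E9.5 (67.6) and at most 201.3 at E10.5 (42.9). The promoter regions of Wnt5a were shared, its best scores being 851.18 (76.7) and 494.91 (71.1).

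Rspo2 and Rspo3 differed in where their E10.5-specific regions lay. The Rspo3 region at chr10:29456058-29457175 scored 925.2 (percentile 84.6), the highest of all E10.5-specific Wnt regions, with the nearest E9.5 region 48510 bp away. Other Rspo3 regions scored 656.68 at 317 kb and 521.51 at 189 kb upstream, and all 9 lay upstream, in intergenic sequence. Rspo2 had 9 E10.5-specific distal regions with scores from 104.84 to 527.15. The strongest lay 42.9 kb upstream, and 6 lay inside introns of Rspo2 itself, led by a region at 55.9 kb scoring 357.34. The shared Rspo2 region 208 kb downstream scored 92.77 at E9.5 (4.78) and 232.11 at E10.5 (48.6).

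Fzd1 and Dkk2, a receptor and an inhibitor, had a surplus of 9 specific regions each. The 10 E10.5-specific distal regions of Fzd1 lay 47.1 to 223 kb from its start, on either side, with scores from 118.47 to 617.15. Shared Fzd1 regions also ranked higher at E10.5: a region 273 kb downstream scored 990.5 at E10.5 (percentile 85.9), where the best overlapping E9.5 region scored 151.86 (28.9), and a region 63.2 kb upstream scored 101.39 (7.29) and 455.78 (69.0). The 10 E10.5-specific regions of Dkk2 lay 44.7 to 268 kb from its start. The strongest, at chr3:131603521-131604651, scored 706.89 (79.3) and ended 116 bp from an E9.5 region that scored 108.99 (11.4).

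**Figure D4:**
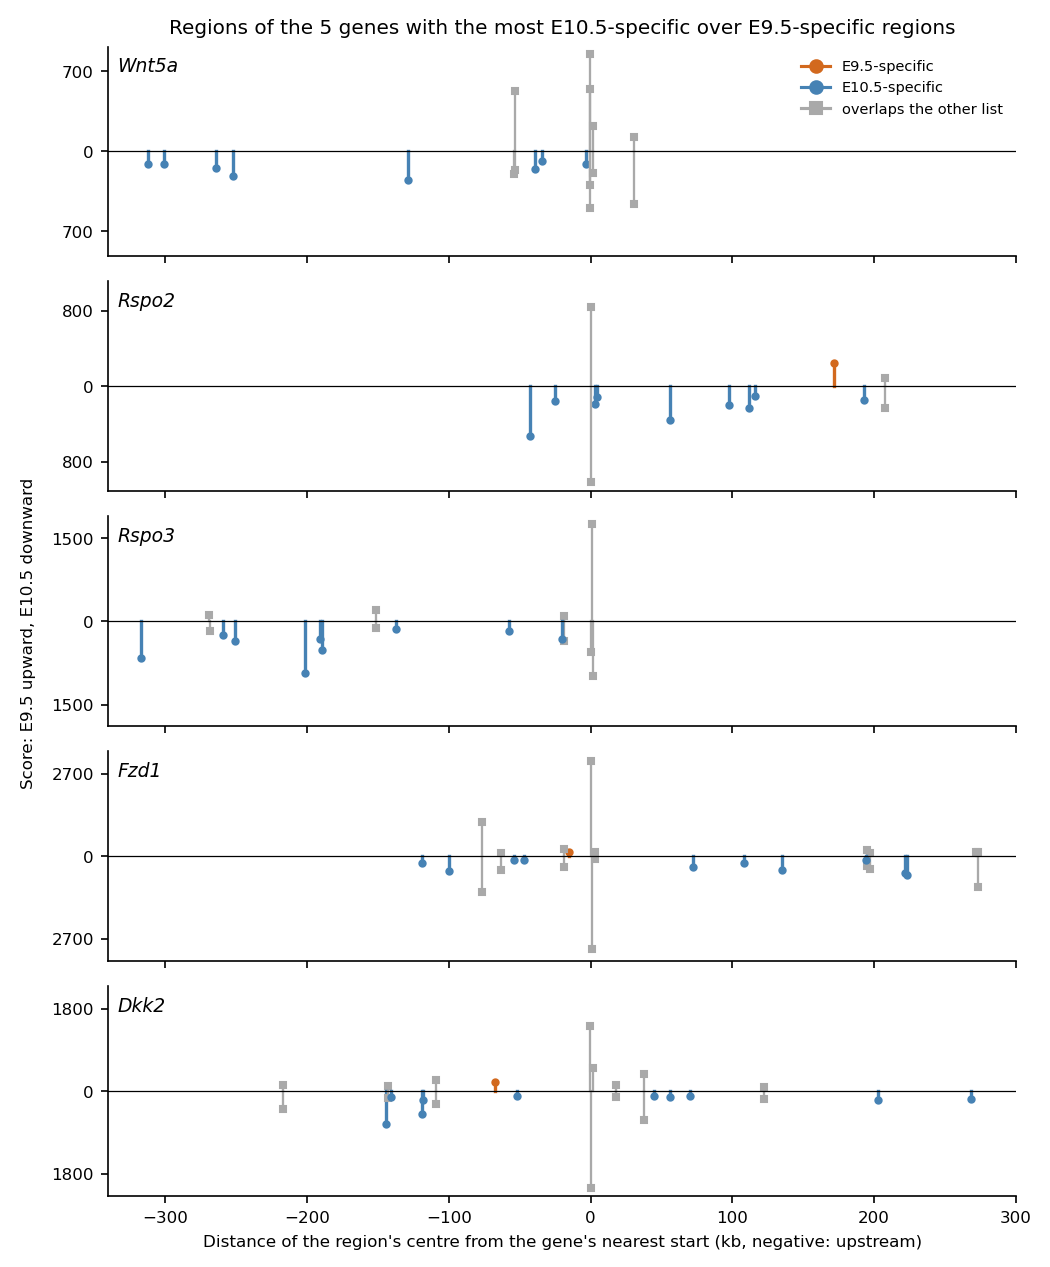
Regions of Wnt5a, Rspo2, Rspo3, Fzd1 and Dkk2 by the distance of their centre from the gene's nearest start (horizontal axis, in kb, negative upstream) and by score (E9.5 upward, E10.5 downward, with a vertical scale for each gene). Coloured stems are stage-specific and grey stems overlapped the other list, and blue stems stand as far as 317 kb from the starts.

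The E10.5-specific share was higher at genes with wide surroundings, among the Wnt genes and in the whole list. Of the distal regions of the 9 Wnt genes nearest to 250 kb or more of sequence, 62 of 99 (62.6% [52.8, 71.5]) were specific at E10.5, and of those of all such genes 61.5% were. For the 27 Wnt genes with less than 100 kb the share was 13 of 43 (30.2% [18.6, 45.1]), against 29.4% for all such genes. At E9.5 the shares were 16 of 52 (30.8% [19.9, 44.3], against 41.0%) for the wide genes, 46 of 86 (53.5% [43.0, 63.7], against 41.2%) for the 17 genes between 100 and 250 kb and 23 of 52 (44.2%, against 38.4%) for the narrow ones. The size classes were set after the values were seen. Of the R-spondins, Rspo2 (303 kb) and Rspo3 (419 kb) are wide and Rspo1 (49.2 kb) and Rspo4 (83.5 kb) narrow, while most of the Wnt family is narrow. The part of size in the shares of these families was not tested.

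The distance to the start moved in the same way. E10.5-specific distal Wnt regions lay a median of 60.3 kb from the nearest start, and 38 of 102 (37.3%) lay 100 kb or more away, against 63.4 kb and 38.4% for all E10.5-specific distal regions. E9.5-specific ones lay a median of 24.4 kb away, and 4 of 85 (4.71%) lay at 100 kb or more, against 31.0 kb and 22.3% in the whole list. Base composition differed as well. The central 300 bases of E9.5-specific distal Wnt regions had a median of 54.3% G and C, and those of E10.5-specific ones had 46.0%, compared with 51.0% and 44.0% in the whole lists. It fell to 39.0% for the E10.5-specific regions of Rspo3 and 40.7% for those of Rspo2.

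Of the 5 genes with the largest surplus of E9.5-specific regions, 3 were receptors, beside Axin2 and the ligand Wnt7b. Fzd7 had 7 distal regions at E9.5, of which 6 were specific, and 2 at E10.5. The strongest lay 58.8 kb upstream with a score of 525.98 (percentile 67.3), and its promoter region of 5193 bp at E9.5 met 2 shorter ones at E10.5. Fzd9 had 4 distal regions at E9.5, all specific, and 0 at E10.5. The strongest, at chr5:135729184-135730550, lay 2.77 kb upstream, just outside the promoter distance, and scored 831.23 (76.3), and the Fzd9 promoter itself went from 920.86 (78.3) to 268.71 (53.8). Lgr4 had 9 distal regions at E9.5, 6 of them specific, and the region printed above scored 1018.36 (80.2). Of these 3 genes, Lgr4 alone kept a promoter score of 3100 at both stages.

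Axin2 had 12 distal regions at E9.5 and 6 at E10.5. Of the former 7 were specific, led by chr11:108856011-108857290 at 846.26 (76.6), 51.7 kb from the nearest start. The shared ones moved in both directions. The region at chr11:108807993-108809645, in an intron 3.88 kb from the nearest start, scored 1213.38 at E10.5 (89.5) and overlapped an E9.5 region scoring 238.01 (47.1). The printed region with 3 matches to CTTTGAA scored 178.63 at E9.5 (36.2) and 566.61 at E10.5 (74.4). A region 68.2 kb away stayed high, with 1738.26 (90.6) and 1503.1 (92.8).

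**Figure D5:**
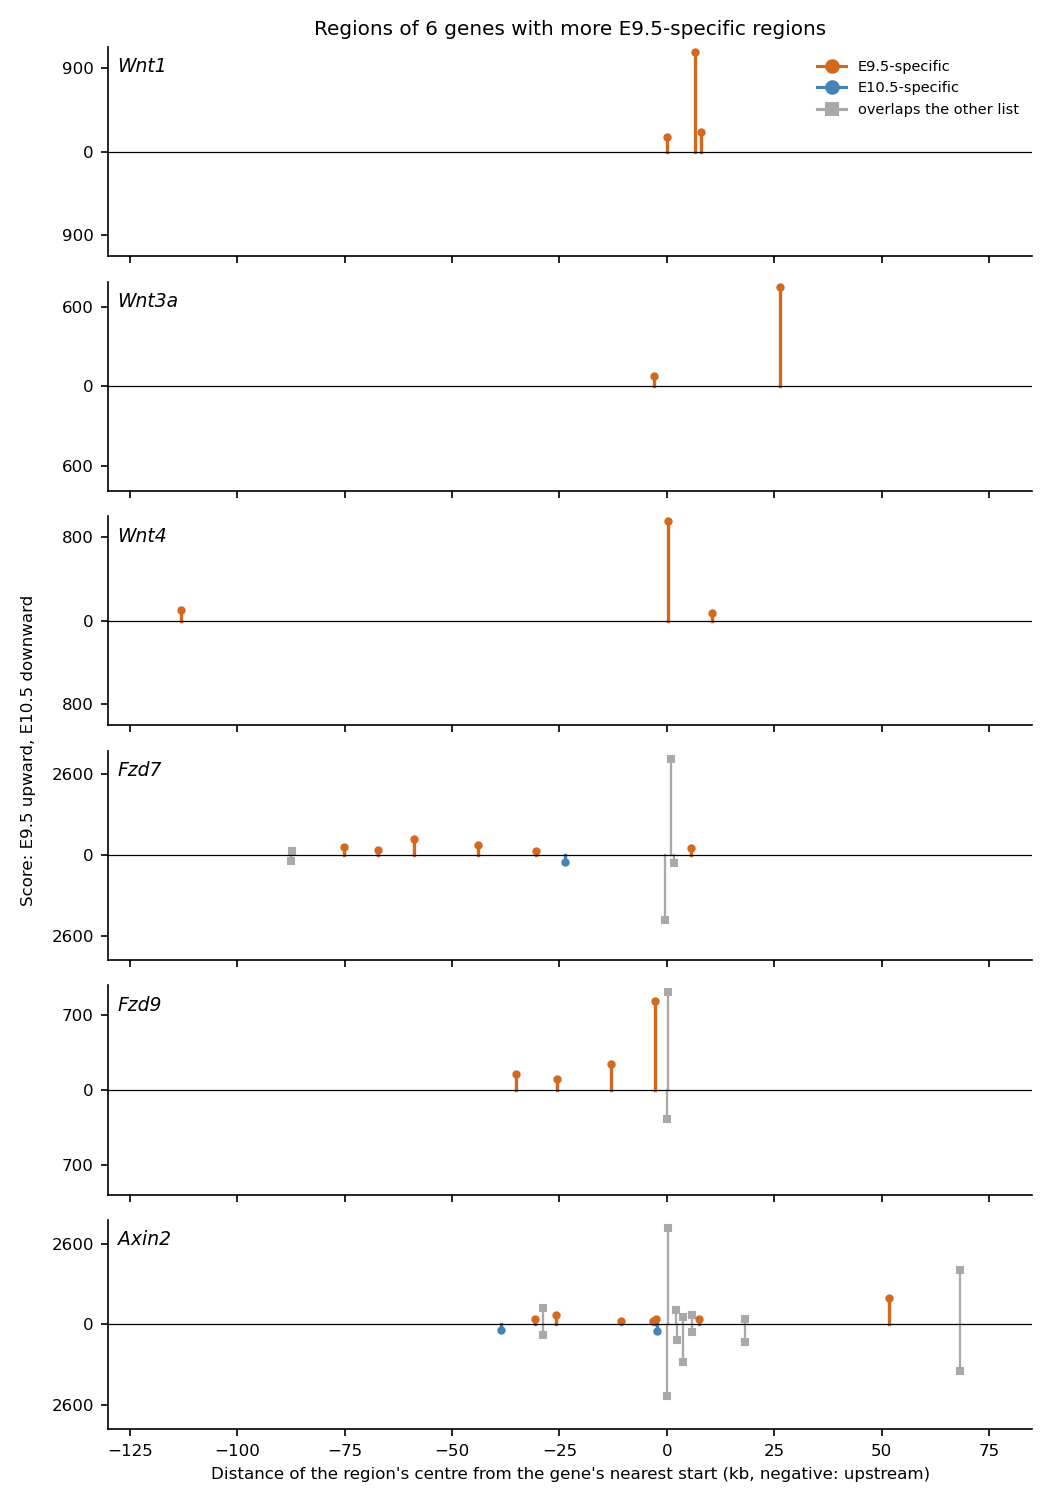
Regions of Wnt1, Wnt3a, Wnt4, Fzd7, Fzd9 and Axin2, drawn as in the map of Wnt5a and the other genes with an E10.5 surplus, over a shorter span. Orange stems are E9.5-specific, Wnt1, Wnt3a and Wnt4 have no stem pointing down, and Axin2 is the gene with the most grey stems.

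Among the TCF/LEF factors, Tcf7l2 had many distal regions at both stages, with as many specific at E9.5 as at E10.5. Of its 17 distal regions at E9.5 and 18 at E10.5, 10 were specific at each stage. The strongest E10.5-specific ones scored 756.32 (the printed region) and 736.92, 188 kb from the nearest start. A shared region inside the gene, 72.5 kb from the nearest start, scored 373.18 at E9.5 (percentile 59.8) and 1437.52 at E10.5 (92.2), while a shared region 185 kb upstream, in an intron of Vti1a, scored 1306.45 (85.2) and 324.52 (59.7). Lef1 had 8 and 9 distal regions, of which 2 and 3 were specific. Its region 3.58 kb upstream scored 1439.86 at E9.5 (87.1) and 1090.42 at E10.5 (87.6), and the shared region in its own intron, 24.2 kb away, scored 174.25 at E9.5 (35.1) and 630.5 at E10.5 (76.8). Ctnnb1 itself, nearest to 248 kb of sequence, had 0 distal regions at E9.5 and 1 at E10.5.

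Wnt11, a ligand of the β-catenin-independent branch, was the gene nearest to the strongest distal regions of the list. The printed region scored 3135.43 at E9.5 (99.7) and 1993.75 at E10.5 (96.0). This region held the tRNA promoter letters GGTTCAA, and whether it belongs to a tRNA gene or to Wnt11 was not tested. A region 119 kb downstream, in an intron of Uvrag, scored 310.89 at E9.5 (55.2) but 2124.08 at E10.5 (96.6), the highest distal Wnt score at that stage. Its strongest E10.5-specific region, 50.5 kb upstream, scored 725.49 (79.8). Wnt7b, a ligand needed in lung and placenta, had 10 regions at E9.5, of which 4 were specific, and 6 at E10.5, of which 0 were. The printed Wnt7b region scored 2610.31 (96.5) and 1884.63 (95.4), well above the promoter regions of the gene, which reached 333.62 (57.0) and 145.6 (28.2).

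Among the inhibitors other than Dkk2, Sfrp1, which binds Wnt proteins directly, had the most distal regions, with 7 at E9.5 and 8 at E10.5, of which 4 and 5 were specific. Its strongest E10.5-specific region, 27.1 kb upstream, scored 456.38 (percentile 69.1), and its promoter scored 787.47 (75.1) at the earlier and 502.73 (71.5) at the later stage. Dkk1, which blocks Lrp co-receptors, had 2 distal regions at E9.5, both shared, and 5 at E10.5, of which 3 were specific with scores from 103.54 to 166.15. Wif1 had 4 distal regions at each stage, of which 2 were specific, and Dkk3 had 3 and 4, of which 1 and 2 were. Sfrp5 had 1 distal region, at E9.5.

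The distal counts of further genes, given for E9.5 first and E10.5 second, were as follows. Fzd10 had 8 and 6 distal regions, Fzd4 5 and 6, Fzd2 3 and 3, Fzd8 2 and 1, Fzd5 1 and 1, and Fzd3 1 and 0. Lrp6 had 3 and 4, Lrp5 1 and 1, and Lgr5 1 and 3, the last all specific. Among the ligands, Wnt9a had 3 and 0, Rspo1 2 and 5, Rspo4 3 and 5, Wnt2b 5 and 4, Wnt5b 5 and 4, Wnt2 2 and 1, and Wnt16 2 and 2, all 4 of which were specific. Inside the cell, Tcf7l1 had 7 and 7 and Apc 3 and 3, while Tcf7 had 1 and 1.

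The shared distal regions of the Wnt genes ranked higher at E10.5 about as often as they ranked higher at E9.5. Of 105 shared distal Wnt regions at E9.5, 55 (52.4%) overlapped an E10.5 region with a higher percentile, against 58.2% of all shared distal regions. The counts were 16 of 36 (44.4%) for the ligands, 17 of 28 (60.7%) for the receptors, 12 of 26 (46.2%) for the genes inside the cell and 10 of 15 (66.7%) for the inhibitors. No intervals were made for these small counts, and differences between classes were not tested.

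The 4 pairs of neighbouring Wnt genes, whose starts lie 11.7 kb (Wnt1 and Wnt10b), 24.3 kb (Wnt3 and Wnt9b), 16.2 kb (Wnt3a and Wnt9a) and 19.6 kb (Wnt6 and Wnt10a) apart, had no E10.5-specific region. The pairs were not among the planned results. These 8 genes had 26 regions at E9.5, of which 14 were specific (53.8%, against 29.9% of all regions). Of the 17 that were distal, 10 were specific (58.8% [36.0, 78.4]), an interval that held the 40.3% of all distal regions. It also held the 38.4% of all genes with less than 100 kb. Wnt1, Wnt3a and Wnt10b, which had no region at E10.5, were among the 8 genes. At E10.5 the 8 genes had 13 regions, of which 0 were specific (against 35.0%). Only 8 of the 13 were distal, and the interval of 0 of 8 [0, 32.4] held the 29.4% of all genes with less than 100 kb. The other 10 Wnt genes had 52 regions at E9.5, of which 19 were specific (36.5%), and 49 at E10.5, of which 15 were (30.6%). Each of the 8 genes was nearest to 42.5 kb of sequence or less, a size at which E10.5-specific regions were also less frequent in the whole list, as given above.

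Stage-specific Wnt regions lay nearer to regions of the other list than such regions did in general. The gap from an E9.5-specific distal Wnt region to the nearest E10.5 region had a median of 9.21 kb (12.2 kb in the whole list), and 11 of 85 (12.9%) lay within 1 kb, against 7.14%. For E10.5-specific ones the median was 14.4 kb (23.8 kb in the whole list), and 13 of 102 (12.7%) lay within 1 kb, against 4.46%. Distal regions were also denser around the Wnt genes at both stages, with 2.40 and 2.63 per 100 kb against 0.989 and 1.18 for all genes. The part of this density in the gaps was not tested.

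Matches to the TCF/LEF core were counted in the central 300 bases of each distal region, on both strands. CTTTGAT was present in 21 of 190 distal Wnt regions at E9.5 (11.1% [7.34, 16.3]), against 5.41% of all distal regions, and in 16 of 208 at E10.5 (7.69% [4.79, 12.1]), against 6.50%. CTTTGAA was present in 19 of 190 [interval 6.50% to 15.1%] at E9.5, against 7.98%, and in 10.1% [6.70, 14.9] at E10.5, against 9.18%. Either form was present in 35 of 190 (18.4% [13.6, 24.5], against 12.9%) and in 34 of 208 (16.3% [11.9, 22.0], against 15.0%). The E9.5 share was close among specific regions (16 of 85, 18.8%) and shared ones (19 of 105, 18.1%). Axin2, Fzd10 and Lef1 had the most E9.5 distal regions with a match, with 4 of 12, 3 of 8 and 3 of 8, and Fzd10 and Dkk2 the most at E10.5, with 4 of 6 and 4 of 16. A match is a run of letters and not a shown site of binding.

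For all the other motifs except GGTTCAA, each interval held the share of all distal regions. TAATTA was present in 7.37% [4.44, 12.0] of the distal Wnt regions at E9.5 and 13.0% [9.08, 18.2] at E10.5, against 7.15% and 12.0% of all distal regions. TGACAG was present in 22.1% [16.8, 28.5] and 20.7% [15.7, 26.7], against 25.3% and 23.7%. GGCGCC was present in 7.37% [4.44, 12.0] and 4.81% [2.63, 8.62], against 5.90% and 4.55%. GGTTCAA, added after the Wnt11 region was seen, was present in 5.26% [2.88, 9.42] and 2.40% [1.03, 5.50], against 2.56% and 2.60%. The E9.5 interval lay above the background, but the count includes the region that led to the search, so it is a description only. GGTTCGA, added with it, was present in 0 of 190 [0, 1.98] and 0 of 208 [0, 1.81], against 0.548% and 0.488%.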

How the data were processed

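The deposited files hold, for each stage, 1 list of accessible regions with a score. Per the labels and the study's methods, the authors aligned reads to mm9 with Bowtie 1.1.0, keeping unique alignments with at most 2 mismatches, called peaks with MACS 1.4 per replicate, using no control, and combined the 2 replicates of a stage (weak threshold 1e-06, stringent threshold 1e-10). The deposited score is 10 times the negative log10 of the best p-value among the replicates. It depends on depth, and read counts were not used here. Without a control, sequence-dependent insertion and copy number act on the scores.

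Regions were assigned in Python 3.11.15 with numpy 2.4.6 (plots with matplotlib 3.10.9) to 70064 transcription starts of protein-coding genes in GENCODE vM1, the annotation of mm9. All 53 genes were matched. Overlap meant at least 1 shared base. Sequences and base composition came from the mm9 genome. Overlap, assignment and intervals were checked on simulated data. The members and lists were chosen with earlier results of these data known. The rule for genes described in full took the genes with the most distal regions in each class, the 5 highest-scoring stage-specific and shared distal regions per list, genes lacking a promoter region, and the 5 genes at each end of the difference in stage-specific counts. Of 37 marker genes, 36 were matched. Alternatives covered the overlap rule, promoter distance, score minimum, type and distance of starts, and leaving out genes.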

Additional observations from a re-analysis of the deposited data

How the results depend on the processing

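Of 172 recalculated values, 145 moved by less than their interval (counts: by less than 1.5 times). Shares and counts have no sign, so a reversal was not possible. The side of the background on which a share lay could change. The E10.5-specific distal share was 49.0% (whole list 49.6%) as reported, and 54.3% (whole list 52.5%) with a reciprocal overlap of 50%. Requiring a reciprocal overlap of 50% raised the specific share of all Wnt regions from 37.3% to 43.5% at E9.5 and from 39.1% to 45.9% at E10.5. The whole list also rose, from 29.9% to 33.4% and from 35.0% to 39.3%. With starts within 100 kb only, the E10.5 share was 31.6%, that of distal ligand regions 39.3%, and the promoter-proximal share 27.8%. Promoter-proximal shares at E9.5 and E10.5 were 34.9% and 27.9% with a 5 kb promoter (whole list 44.6% and 37.8%). With starts of all gene types they were 31.6% and 29.1% (whole list 38.3% and 32.9%). In the higher-scoring 50% of each list they were 48.6% and 34.1% (whole list 61.3% and 50.8%). That last setting kept 109 and 126 regions, and raised the E10.5-specific distal share to 63.9%, with 65.4% for ligands, 60.9% for receptors, 58.3% inside the cell and 80.0% for inhibitors (60.6% in the whole list). Comparing the higher-scoring 50% of a list with the whole other list was added after seeing the data. It gave 18.3% of all and 32.1% of distal regions at E9.5 (whole list 10.8% and 22.8%), 17.6% for ligands and 23.5% inside the cell. At E10.5 it gave 23.0% and 33.7% (whole list 18.1% and 35.4%), 30.4% for receptors, 25.0% inside the cell and 30.0% for inhibitors. Leaving out 1 gene moved the share of distal receptor regions specific to E9.5 between 42.6% without Fzd7 and 55.6% without Fzd1, and that of E10.5 inside the cell between 29.6% without Tcf7l2 and 43.6% without Axin2.

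No paired analysis was possible because the deposited lists combine the 2 replicates of each stage, so leaving out a replicate could not be run either. Differences between lists cannot be separated from depth, dissection or threshold, and a list does not show how far an absent region lay below its threshold.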
